A study of Mus musculus with 10 samples.

Results

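The kidney returns filtered phosphate to the blood through sodium-phosphate cotransporters in the brush border of the proximal tubule. The main one, encoded by Slc34a1, is held at the membrane by scaffold proteins that bind its tail through PDZ domains, and parathyroid hormone (PTH) and FGF23, a hormone made in bone, both cause it to be withdrawn from the membrane. Here 8 genes of this system were followed: the transporters Slc34a1, Slc20a1 and Xpr1, the scaffolds Pdzk1, Slc9a3r1 and Slc9a3r2, the scaffold-binding membrane protein Pdzk1ip1 and the PTH receptor Pth1r. All probe sets whose platform annotation names one of these genes and no other were taken, which gave 9 of 12422 probe sets that are not controls. Of the 8 genes, 7 had 1 probe set and Pdzk1 had 2, and 0 further probe sets named a member together with another gene. All 9 passed the filter on low values.

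Each of 10 mice gave whole-kidney RNA for 1 Affymetrix MG_U74Av2 array: 5 carried a transgene (TG, animals 614, 619, 652, 657 and 661) and 5 were their wild-type littermates (WT, animals 612, 618, 650, 658 and 663). All 10 mice were of a C57Bl strain and 8 weeks old. The transgene is human wild-type FGF23 placed after a promoter that the labels call 1 alpha col 1, while the sources used here do not state how many founder lines there were. The comparison asks how the kidney's transcripts differ in mice that carry the FGF23 transgene. Groups were taken from the sample titles, since the genotype field reads transgenic for all 10 samples. Xist, the transcript of the inactive X chromosome, ran from 9.94 to 11.90 in 4 animals and from 3.09 to 3.36 in the other 6, so WT 612, WT 650, TG 614 and TG 652 were taken as female. The Y-linked Eif2s3y split the animals the same way, at 3.88 to 4.43 and 8.06 to 8.53. Per array, 53.0% to 57.0% of probe sets exceeded a log2 value of 4, the value chosen for the filter. No annotation row used here names Slc34a3, Slc20a2 or Fgf23, and Slc34a2 was under the filter and not tested.

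The sequences upstream of the 3 members that were lower in TG in the model with sex show what precedes the transporter, scaffold and exporter genes. All are the 250 bases before the gene's start, 5′ to 3′ on the gene's strand, from RefSeq on build GRCm38.p6. Slc34a1 lies at chr13:55399398-55399647 (plus strand), Pdzk1 at chr3:96829815-96830064 (plus strand, the first of its listed starts) and Xpr1 at chr1:155417445-155417694 (minus strand). Capitals mark matches, on either strand, to the motifs GTTAAT (bound by HNF1, a factor of the proximal tubule), AGGTCA (bound by nuclear receptors), CCAAT (the CCAAT box), the GC box GGGCGG, the E-box CACGTG and the TATA box TATAAA.
Slc34a1: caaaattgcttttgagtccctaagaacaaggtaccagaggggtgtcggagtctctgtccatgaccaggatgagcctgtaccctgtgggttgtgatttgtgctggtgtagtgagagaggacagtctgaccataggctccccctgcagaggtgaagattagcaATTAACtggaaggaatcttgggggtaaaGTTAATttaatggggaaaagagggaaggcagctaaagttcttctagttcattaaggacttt
Pdzk1: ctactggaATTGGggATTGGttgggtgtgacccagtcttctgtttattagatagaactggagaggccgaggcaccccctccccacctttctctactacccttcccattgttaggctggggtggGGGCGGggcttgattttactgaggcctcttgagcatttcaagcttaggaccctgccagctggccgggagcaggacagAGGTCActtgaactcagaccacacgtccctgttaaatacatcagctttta
Xpr1: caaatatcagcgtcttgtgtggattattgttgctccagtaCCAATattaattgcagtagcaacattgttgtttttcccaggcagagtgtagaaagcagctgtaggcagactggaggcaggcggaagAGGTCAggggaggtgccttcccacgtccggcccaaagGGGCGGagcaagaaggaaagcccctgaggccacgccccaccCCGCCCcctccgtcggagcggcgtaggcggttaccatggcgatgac
In Slc34a1 the capitals are 2 HNF1 motifs, at -89 to -84 and -61 to -56 from the start, and 6.43% of 32851 upstream windows of the same length held this motif. The Pdzk1 window held AGGTCA at -50 to -45, which 14.0% of all windows held, with 2 CCAAT boxes and 1 GC box. In the Xpr1 window AGGTCA lay at -124 to -119, beside 1 CCAAT box and 2 GC boxes. CCAAT was found in 33.8% of all windows and the GC box in 32.7%, so these are common motifs. Direct repeats of AGGTCA spaced by 1 base (DR1) or 3 bases (DR3, the vitamin D response element) overlap AGGTCA, and these repeats and TATAAA had 0 matches in the 13 windows of the 8 genes. Over all windows, TATAAA was found in 12.4%, CACGTG in 6.02%, DR1 in 0.0335% and DR3 in 0.00609%.

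Across the 9 probe sets, 8 lay lower in TG, 5 of them by 0.3 or more on the log2 scale. Pdzk1 fell by one of its probe sets, and this was the 1 call among the 9 at an adjusted p under 0.05 (limma with Benjamini-Hochberg adjustment over all 6814 tested probe sets). Of all tested probe sets, 1.22% were called (0.426% lower in TG), 53.8% lay below zero and 7.31% were at -0.3 or lower. At an unadjusted p under 0.05 stood 5 of the 9, against 12.7% of all. The median difference of the 9 was -0.40, against -0.02 over all tested probe sets. In 4 of the 9 the highest TG mouse was below the lowest WT mouse, as in 1.91% of all tested probe sets. With sex in the model, Pdzk1, Slc34a1 and Xpr1 fell, 3 of 9 against 4.18% called among all probe sets (1.67% lower in TG). Bulk RNA cannot tell fewer cells of a type from less RNA per cell. In the 10 mice, the mean level of 21 tested proximal tubule markers, of 30 listed, ran from 11.02 to 11.48 in WT and from 10.96 to 11.36 in TG (exact two-sided permutation p = 0.230). Of the 21 markers 14 lay below zero, and 1 fell, the brush border aminopeptidase Anpep (-0.90, adjusted p = 0.00636 by limma). G6pc, also among the 21, lay higher in TG by 0.82 and was not called (limma adjusted p = 0.135, or 0.0817 once sex entered). With sex in the model 2 fell, Anpep (adjusted p = 0.00278) and the organic anion transporter Slc22a6 (-0.83, adjusted p = 0.0352). With the mean of the 21 markers as a covariate Pdzk1 differed by -0.49 (adjusted p = 0.0369) and Slc34a1 by -0.39 (adjusted p = 0.0617).

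**Figure D1:**
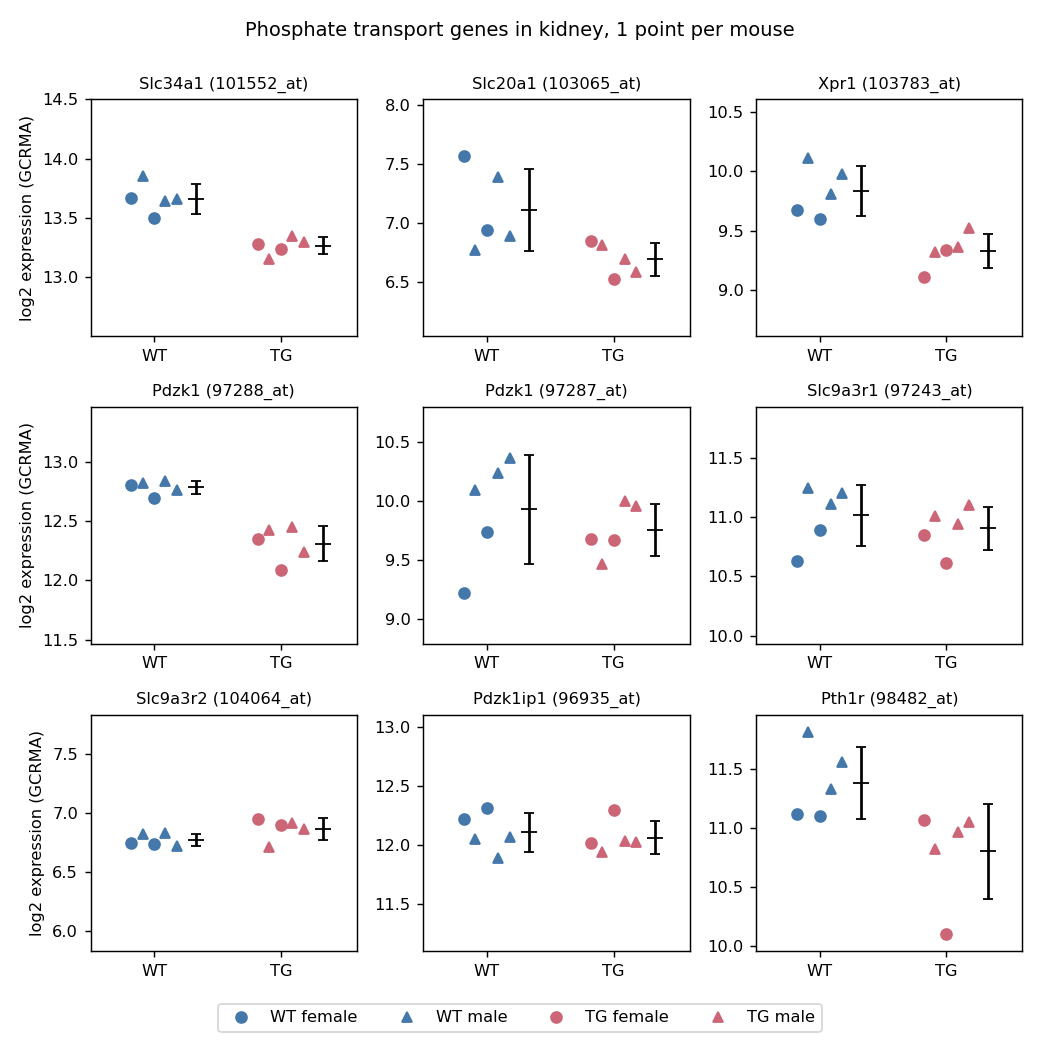
Log2 expression (GCRMA values, vertical axes of equal span) of the 9 probe sets, 1 point per mouse, circles for females and triangles for males, with the mean and SD of each genotype beside the points. Slc34a1, Xpr1, Pth1r and the Pdzk1 probe set 97288_at have no overlap between WT and TG, and the remaining 5 probe sets overlap.

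Slc34a1 (probe set 101552_at) encodes the sodium-phosphate cotransporter that carries most phosphate across the brush border in the mouse. WT 612, 618, 650, 658 and 663 read 13.66, 13.85, 13.50, 13.64 and 13.66 on the log2 scale. TG 614, 619, 652, 657 and 661 read 13.28, 13.15, 13.24, 13.34 and 13.30. The groups did not overlap, and the highest TG mouse, 657, lay below the lowest WT mouse, the female 650. The means were 13.66 ± 0.13 and 13.26 ± 0.07 (SD, n = 5), a TG level 1.32-fold lower. The log2 difference was -0.40 ± 0.08 (SE, 95% interval -0.59 to -0.21), with adjusted p = 0.0533 by limma over all probe sets and 0.0258 with sex in the model. It was -0.32 in females and -0.45 in males, and lay below zero within both number ranges, both fluidics stations and on the first processing day. Without sex in the model, the difference passed in 1 of 10 limma fits that each left out 1 mouse. That was without WT 650 (-0.44, adjusted p = 0.0467), and in the rest the adjusted p ran up to 0.152. It did not pass with chip lot (adjusted p = 0.0846), fluidics station (0.0706) or processing day (0.196) as a block. With sex in the model it passed in 4 of 10 fits that each left out 1 mouse, and not without WT 612, 618 or 663 or TG 619, 657 or 661 (adjusted p up to 0.0662).

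Xpr1 (103783_at) encodes the phosphate exporter, which moves phosphate out of cells. Its WT levels, in the same order of animals, were 9.68, 10.11, 9.59, 9.81 and 9.98. The TG levels were 9.11, 9.32, 9.33, 9.36 and 9.52. Again the groups did not overlap, with the highest TG mouse, 661, below the lowest WT mouse, 650. The log2 difference was -0.51 ± 0.12 (SE, 95% interval -0.77 to -0.24, 1.42-fold lower), with adjusted p = 0.0795 by limma and 0.0148 with sex in the model. Females differed by -0.41 and males by -0.57. The call with sex in the model was lost on leaving out TG 657 (adjusted p = 0.0502) and held for each of the other 9 mice. With the proximal tubule marker mean as a covariate the difference was -0.43 (adjusted p = 0.103).

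Slc20a1 (103065_at) encodes a widely expressed sodium-phosphate cotransporter of another family. WT mice read 7.56, 6.77, 6.94, 7.39 and 6.89, and TG mice read 6.85, 6.81, 6.53, 6.70 and 6.59. The groups overlapped, since WT 618 lay below TG 614 and TG 619, and the WT spread (SD 0.34) exceeded that of TG (SD 0.14). The log2 difference of -0.41 ± 0.16 (SE) had an interval of -0.76 to -0.07 and did not pass (adjusted p = 0.306 by limma, 0.195 with sex in the model).

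Pdzk1 encodes a scaffold with several PDZ domains that binds the Slc34a1 protein and other brush border transporters. On probe set 97288_at, which has the higher mean and represents the gene, WT mice read 12.80, 12.82, 12.70, 12.84 and 12.76. The TG mice read 12.35, 12.42, 12.09, 12.45 and 12.24. All WT values lay within a narrow band and all TG values below it, with TG 652 lowest. The level fell by 0.47 ± 0.09 (SE, 95% interval -0.67 to -0.28, 1.39-fold lower), with adjusted p = 0.0370 by limma and 0.0126 with sex in the model. Leaving out single animals, it passed without WT 650 (adjusted p = 0.0467) and without TG 657 (adjusted p = 0.0498). Leaving out any of the other 8 lost the call, with adjusted p up to 0.101. With sex in the model it passed whichever mouse was left out (adjusted p 0.0233 to 0.0397). The call was also lost with chip lot (adjusted p = 0.0730), fluidics station (0.0507) or processing day (0.170) as a block, the last a fit in which WT 663 and TG 661, each alone on its day, carry no information on the genotypes. The difference itself was -0.53 in females and -0.44 in males, and -0.39 and -0.53 within the 2 chip lots that held both genotypes.

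The second Pdzk1 probe set, 97287_at, did not show this separation. WT mice read 9.22, 10.09, 9.74, 10.23 and 10.36, and TG mice read 9.677, 9.469, 9.669, 9.999 and 9.954. The groups overlapped widely, with the WT female 612 lowest of all and the 3 WT males highest. The log2 difference was -0.17 ± 0.21 (SE, 95% interval -0.63 to 0.28, adjusted p = 0.772 by limma). It moved with single mice, from -0.35 without WT 612 to -0.07 without WT 663. Within the sexes it was 0.19 in females and -0.42 in males, and the limma interaction test of that difference gave adjusted p = 0.996. Per animal, 97288_at minus 97287_at was 2.86 ± 0.46 in WT and 2.56 ± 0.26 in TG (SD, n = 5), a gap of -0.30 with exact two-sided permutation p = 0.246. Without WT 612 the gap was -0.12, and without WT 663 it was -0.42. Deviations from the genotype means correlated at r = 0.06 (exact permutation p = 0.843) and rho = 0.18 (p = 0.601, n = 10), and at r = -0.15 without WT 650 and TG 652. The mean of both probe sets differed by -0.32 (adjusted p = 0.306 by limma).

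**Figure D2:**
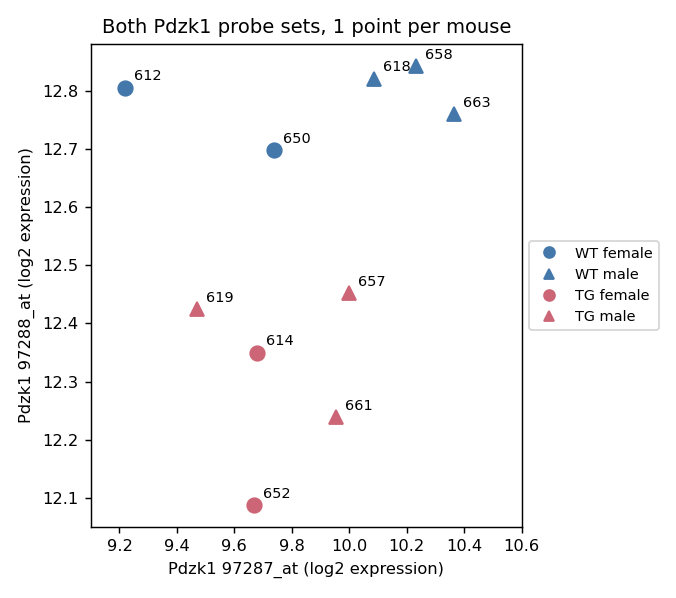
Both Pdzk1 probe sets in each mouse, 97287_at on the horizontal and 97288_at on the vertical axis (log2 expression), with animal numbers. WT and TG separate along the vertical axis and overlap along the horizontal one.

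Slc9a3r1 (97243_at) encodes NHERF1, the scaffold that binds both the Slc34a1 protein and the PTH receptor. WT mice read 10.63, 11.25, 10.89, 11.11 and 11.20, and TG mice read 10.85, 11.01, 10.62, 10.94 and 11.10. The genotypes overlapped, with a log2 difference of -0.11 ± 0.14 (SE, 95% interval -0.42 to 0.19, adjusted p = 0.785 by limma), between -0.21 without WT 612 and -0.04 without TG 652. By sex they did not overlap: the 4 females averaged 10.75, the 6 males 11.10, and the highest female (WT 650) lay below the lowest male (TG 657). In a comparison chosen after the values were seen, with genotype in the model, males were higher by 0.36 ± 0.09 (SE, adjusted p = 0.0370 by limma). This was the 1 of the 9 probe sets past that test, where 8.53% of all tested probe sets passed, so 1 call among 9 is close to the share over all. How many of all probe sets had no overlap between the sexes was not counted. With single animals left out the adjusted p ran from 0.0293 to 0.108, and it passed when TG 614 or TG 619 was left out but not for the other 8. With quantile normalization the difference of 0.30 did not pass (adjusted p = 0.0619), nor with the proximal tubule marker mean as a covariate (0.34, adjusted p = 0.0930).

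Slc9a3r2 (104064_at), which encodes the related scaffold NHERF2, was the 1 member that lay higher in TG, at 6.87 ± 0.09 against 6.77 ± 0.05 (SD, n = 5). The log2 difference of 0.10 ± 0.08 (SE, 95% interval -0.07 to 0.26) did not pass (adjusted p = 0.647 by limma), and the groups overlapped. Pdzk1ip1 (96935_at) encodes MAP17, a small membrane protein that binds Pdzk1. It read 11.89 to 12.31 in WT and 11.94 to 12.30 in TG, with a log2 difference of -0.05 ± 0.10 (SE, 95% interval -0.27 to 0.18, adjusted p = 0.889 by limma). Neither interval reached the -0.47 of Pdzk1 97288_at.

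Pth1r (98482_at) encodes the receptor through which PTH acts on the tubule. WT mice read 11.12, 11.81, 11.10, 11.33 and 11.56, and TG mice read 11.07, 10.82, 10.11, 10.97 and 11.05. The groups did not overlap, but only 0.03 separated WT 650 from TG 614, and TG 652 lay far below the other 4 TG mice. The log2 difference was -0.58 ± 0.20 (SE, 95% interval -1.03 to -0.13, 1.49-fold lower), with adjusted p = 0.267 by limma and 0.0926 with sex in the model. Without TG 652 it was -0.40 (adjusted p = 0.395). It was -0.52 in females and -0.62 in males.

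**Figure D3:**
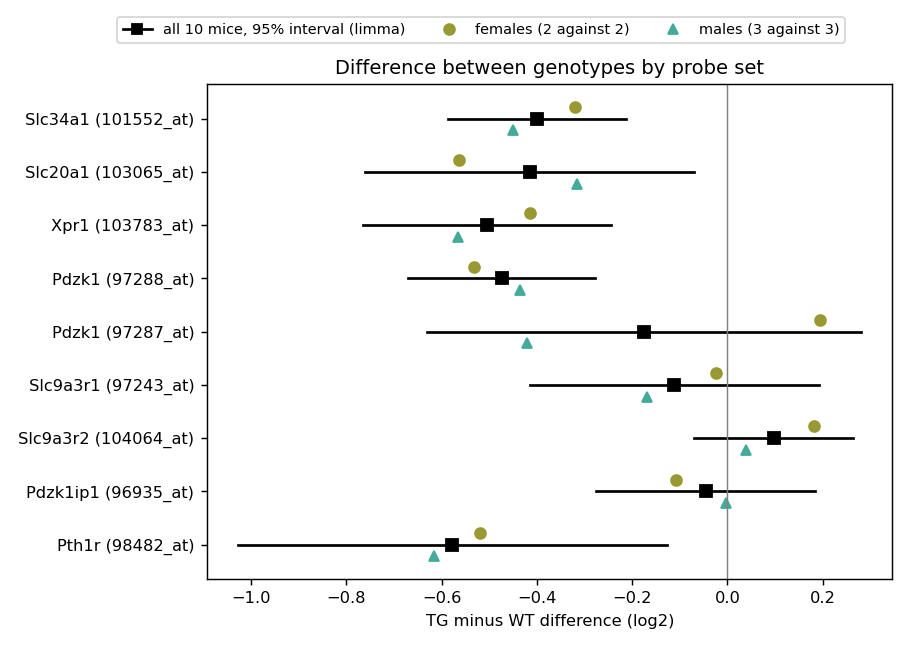
Log2 difference TG minus WT for the 9 probe sets, with the 95% interval from limma over all 10 mice and the differences within females and within males. The intervals of Slc34a1, Slc20a1, Xpr1, Pth1r and Pdzk1 97288_at lie below zero, and those of the other 4 include it.

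The genotype difference did not differ detectably between the sexes: 0 of 9 probe sets passed the interaction test of limma after adjustment, and 0 at an unadjusted p under 0.05, against 0.0147% and 4.15% of all tested probe sets. With 2 females and 3 males per group the intervals of such a gap are wide. With sex and animal number range (612 to 619 against 650 to 663) both in the model, 4 of the 9 probe sets passed, where 8.06% of all tested probe sets did: Pdzk1 97288_at, Xpr1, Slc34a1 and Pth1r. For Pth1r this was the 1 limma model run in which it passed (adjusted p = 0.0454), and with single mice left out of the model without sex its adjusted p was 0.195 to 0.521.

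**Figure D4:**
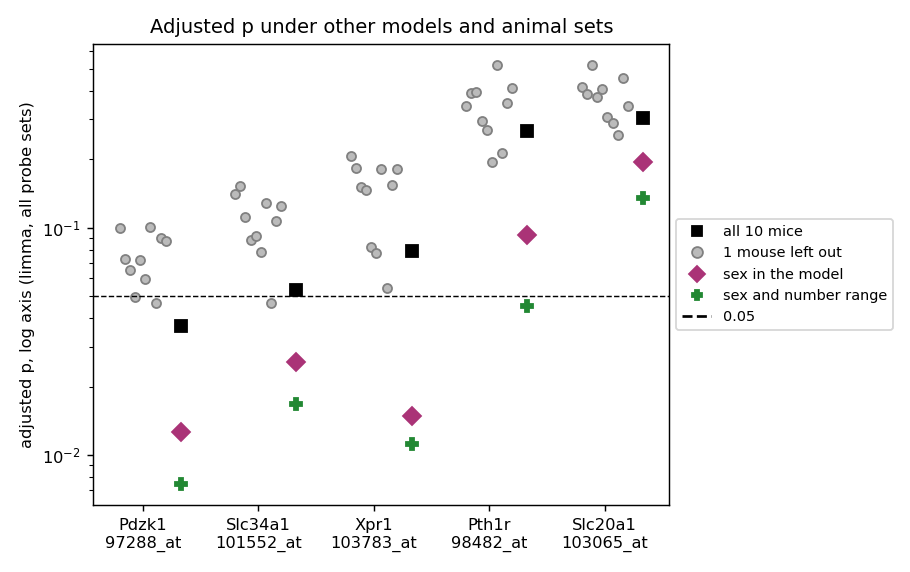
Adjusted p (log axis) of 5 probe sets from limma with all 10 mice, with 1 mouse left out, with sex in the model, and with sex and number range in the model. The dashed line is 0.05. With all mice only Pdzk1 97288_at lies under it, and with sex in the model Slc34a1 and Xpr1 do too.

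How the members moved together was read from each mouse's deviation from its genotype mean, over 28 pairs of the 8 genes with Pdzk1 by 97288_at. Of these, 0 passed after adjustment over the 28 pairs, 5 had an unadjusted exact permutation p under 0.05, and 14 had a positive r (median r -0.01). The pair with the smallest p was the scaffold Slc9a3r1 with its binding partner Pth1r (r = 0.80, rho = 0.75, n = 10, exact permutation p = 0.00569, adjusted p = 0.126). It read r = 0.70 without WT 612 and TG 652, and 0.66 with sex removed. Slc34a1 went with Pth1r at r = 0.57 (rho = 0.76, exact permutation p = 0.0744, adjusted p = 0.261), with Slc9a3r1 at r = 0.36 (adjusted p = 0.677) and with Pdzk1 at r = 0.24 (adjusted p = 0.677). The r of Slc34a1 with Pth1r rested on single mice: it was 0.80 without TG 652 (adjusted p = 0.297), 0.38 without WT 618, 0.31 without WT 618 and WT 650, and 0.47 with sex removed. With sex removed, Slc34a1 correlated at 0.06 with Slc9a3r1 and at 0.07 with Pdzk1. The r of Pdzk1 with Pth1r was 0.62, and 0.05 without TG 652. Pdzk1 and Pdzk1ip1, whose products bind each other, ran opposite ways (r = -0.73, exact permutation p = 0.00903, adjusted p = 0.126), and at r = -0.27 without WT 650 and TG 652. Xpr1 with Slc9a3r1 was at r = 0.70, and at 0.11 with sex removed.

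**Figure D5:**
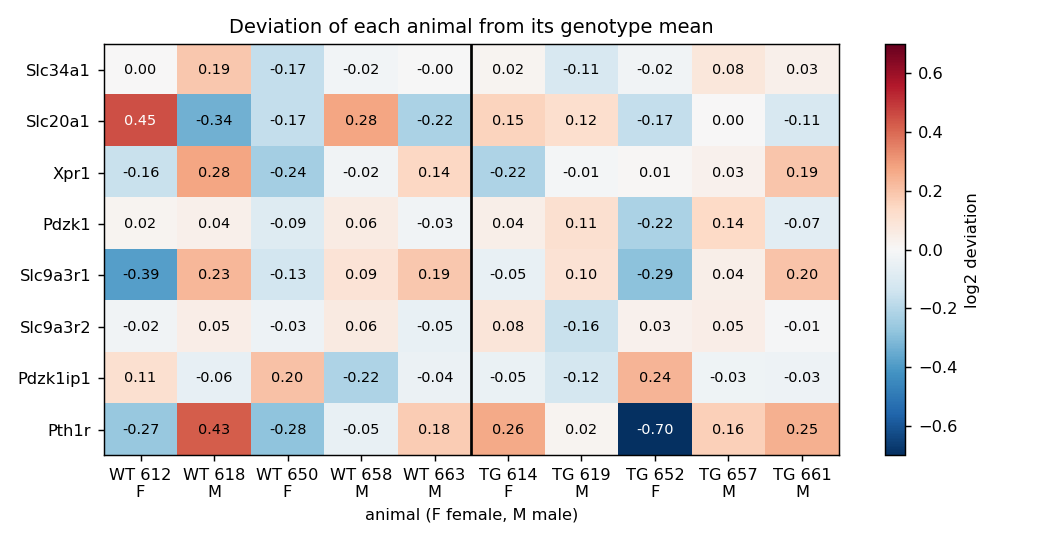
Deviation of each mouse (columns, WT then TG, with sex) from its genotype mean for the 8 genes (rows), as a log2 value in each cell and by colour. TG 652 has the lowest deviation of Pth1r, and WT 612 that of Slc9a3r1.

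The extremes fell on a few mice. TG 652 was the lowest TG mouse in 4 of the 9 probe sets (Pdzk1 97288_at, Pth1r, Slc20a1 and Slc9a3r1) and the highest in Pdzk1ip1. TG 619 was also the lowest in 4 (Slc34a1, Slc9a3r2, Pdzk1ip1 and Pdzk1 97287_at). WT 618 was the highest WT mouse in 4, namely Pth1r, Slc34a1, Slc9a3r1 and Xpr1, while WT 650 was the lowest in 4. Among 6183 tested probe sets, those whose deviations were most like Slc34a1 over the 10 mice were Stard7 (r = 0.90), Maf1 (0.89), Dao (0.88), Grina (0.88) and Ptpa (0.87). Of the members, Xpr1 ranked 165 and Pth1r 351 in that order, and Pdzk1 ranked 1961. For Pdzk1 97288_at the most alike were Dnmt1 (r = 0.91), Polb (0.90), Rpn1 (0.90), Xrcc5 (0.90) and P4ha2 (0.89), with Slc34a1 at rank 2037. The median r over all these probe sets was 0.04 for Slc34a1 and 0.03 for Pdzk1. Each group of 5 was picked as the highest of 6183 or 6182 values over 10 mice. Such a choice gives high r in itself, and these r were not tested.

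Other genes of the system were read from lists. Kl, the klotho co-receptor that FGF23 needs, fell by 0.76 ± 0.07 (SE, adjusted p = 0.000897 by limma), the 1 called of 10 tested genes of the FGF23 receptor and vitamin D axis (0 higher, 9 not called). Of 7 other genes of phosphate handling 0 passed without sex in the model, with a median difference of -0.28. Once sex entered the model, the transporter Slc17a1 fell by 0.41 (adjusted p = 0.0261). Of 14 genes of PTH receptor signalling 2 rose, 0 fell and 12 did not pass. Ramp2, an accessory protein that binds the PTH receptor among others, rose by 1.19 ± 0.14 (SE, adjusted p = 0.00322 by limma), and Rgs2, a brake on G protein signalling, by 1.32 ± 0.27 (SE, adjusted p = 0.0493). Kl and Ramp2 passed whichever mouse was left out, whereas Rgs2 passed on leaving out WT 612 or TG 657 and not for the other 8 (adjusted p up to 0.141). Adenylate cyclase gene Adcy6 rose too with sex in the model (0.48, adjusted p = 0.0380). Adcy9, another adenylate cyclase gene of the list, went the other way by -0.79 and did not pass (limma adjusted p = 0.141 with sex in the model). Of the 14 genes 5 lay below zero. All 9 tested genes of other transporters that bind these scaffolds lay below zero (median -0.35), where 53.8% of all tested probe sets did. Of the 9, 0 passed without sex in the model and 3 fell with it. They were Slc17a1, which is on both lists, Slc22a12, which carries urate (-0.71, adjusted p = 0.0411), and Slc22a6, which carries organic anions (-0.83, adjusted p = 0.0352). Of 13 scaffold and endocytosis genes of the brush border 0 passed without sex in the model, and Lrpap1, the chaperone of megalin, fell with it (-0.59, adjusted p = 0.0343). The calls that needed sex in the model were close to the threshold: with 1 mouse left out, Adcy6 passed in 1 of 10 fits, Slc22a12 in 2, Slc17a1 and Slc22a6 in 3 each and Lrpap1 in 4, with adjusted p up to 0.100.

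Markers of other nephron segments and other cells differed between the genotypes too. Among 6 tested collecting duct markers 2 rose, Kit (1.30 ± 0.26, SE, adjusted p = 0.0440 by limma) and the anion exchanger Slc4a1 (0.83 ± 0.17, SE, adjusted p = 0.0478), and the water channel Aqp4 fell with sex in the model (-1.18, adjusted p = 0.0220). Of 8 tested markers of the thick limb and distal tubule (median 0.49) 0 passed without sex in the model and 2 rose with it, the salt cotransporter Slc12a3 (0.92, adjusted p = 0.00328) and the potassium channel Kcnj1 (0.78, adjusted p = 0.0119). Pvalb (-0.91) and Calb1 (-0.58), also among the 8, lay lower in TG, and neither was called by either model. Of 9 endothelial and podocyte markers 0 passed, with Kdr at -0.18 and Pecam1 at 0.07.

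Of 18 listed leukocyte markers 13 were tested and all 13 lay higher in TG, 2 of them past the test and 6 with sex in the model. C1qc, among the 13 and among the 6, averaged 3.31 in WT, under the filter value of 4, and 5.10 in TG. It may have passed the filter through TG alone, so its direction is no support. The mean of all 13, C1qc included, ran from 6.33 to 6.88 in WT and from 6.93 to 8.34 in TG (exact two-sided permutation p = 0.00794, the smallest possible). The list was chosen with earlier results of these data known, so this p is not independent support. Ctss, a lysosomal protease, rose by 1.24 and the complement gene C1qa by 1.46 (adjusted p = 0.0370 and 0.0493 by limma), while Cd74 and C1qb rose with sex in the model. The mean of 8 tested tubular injury markers, of 14 listed, ran from 6.54 to 6.84 in WT and from 7.38 to 8.24 in TG, and Clu, Lcn2, Fgg and Lgals3 rose. The other 4, Vcam1, Krt18, Krt8 and Fgb, lay above zero but did not pass (adjusted p 0.202 to 0.889 by limma). Clu, Lcn2, Fgg, Anpep, Slc12a3 and Kcnj1 passed whichever mouse was left out. Lgals3 and Aqp4 passed in 7 of 10 such fits, Cd74 in 4, Kit and Ctss in 3 each, Slc4a1 and C1qb in 2 each and C1qa in 1, each in the model that called it. The part of these segments and cells in the lower levels of Slc34a1, Xpr1, Pdzk1 and Pth1r was not tested. As a check of the RNA, the actin 3′ minus 5′ control difference was 1.95 to 3.35 in WT and 1.82 to 2.58 in TG (exact two-sided permutation p = 0.254), and that of Gapdh 0.54 to 1.47 and 0.35 to 0.90 (p = 0.127). With the actin difference as a covariate Pdzk1 97288_at differed by -0.44 (adjusted p = 0.0631 by limma). The second probe set, 97287_at, then differed by -0.40 ± 0.16 (SE, adjusted p = 0.264), against -0.17 without the covariate. WT 612, the lowest mouse on 97287_at, had the highest actin difference (3.35). The part of RNA quality in the gap between the Pdzk1 probe sets was not tested.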

How the data were processed

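The deposited series table holds log2 values per probe set and array, made by the authors with GCRMA (no version stated), per the submitters' processing notes. The range of the values showed the log2 scale. They were used as deposited. Batches were chip lot, fluidics station and processing day, per the file headers of the run records. Symbols were checked against RefSeq names (0 replaced, 16 without match). Probe sets with a log2 value over 4 on at least 5 of the 10 arrays were tested: 6814 of 12422.

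TG and WT were compared with limma 3.58.1 in R 4.3.3 (lmFit and eBayes, no trend, not robust, two-sided, Benjamini-Hochberg over all 6814, threshold 0.05). Single values used exact permutation over all 252 assignments of animals, where the smallest two-sided p is 0.00794. Correlations were of deviations from the genotype means, with animals permuted within each genotype over 14400 orderings. Sex was read from Xist (female over 6). For Pdzk1 the probe set with the higher mean stood for the gene. Nothing says that the animals came from separate litters, so p-values measure the spread between these mice. Their number limits the precision. The fit was tested on simulated data.

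The members, gene lists and tests were chosen with earlier results of these data known. Named are every member probe set, in each list up to 4 genes past the threshold without or with sex in the model or otherwise the 2 with the smallest p, the 5 genes most like Slc34a1 and Pdzk1, Kl, Xist, Eif2s3y and the RNA controls. Pvalb, Calb1, G6pc and Adcy9 were added after the values were seen, because they differed the other way from called genes of their lists. C1qc was added for its low WT level, and the injury markers that were not called were added too. The comparison of sexes for single members, and the alternatives for it, for listed genes and for calls with sex in the model, were added after the values were seen. Alternatives covered filters, variance models, normalization, batches, sex, RNA quality and leaving out each animal. Figures were drawn with matplotlib 3.10.9.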

Additional observations from a re-analysis of the deposited data

Results flagged for a closer look

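In 18 groups (9 probe sets in 2 genotypes of 5 mice), 2 held a mouse far from the others by Dixon's criterion (gap over range above 0.71), where chance gives about 1 in 20 groups. Both were the TG female 652. Its Pth1r level was 10.11, with the other 4 TG mice at 10.82 to 11.07 (gap over range 0.745). Its Pdzk1ip1 level was 12.30, with the others at 11.94 to 12.03 (gap over range 0.740).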

How the results depend on the processing

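Over all probe sets 83 were called, and the count was 48 with no filter, 52 with fluidics station, 32 with processing day, 285 with sex and 549 with sex and number range in the model, 1 in females alone, 146 with the proximal tubule marker mean as a covariate and 18 at a threshold of 0.01. Leaving out each animal gave 31 to 92. Of the 9 member probe sets 1 was called, and the count was 2 with the filter at log2 over 6, with trended variances, with 16 added to the linear value and with number range as a block. It was 3 with array weights or sex in the model and 4 with sex and number range. It was 0 with chip lot, fluidics station, processing day or the actin difference in the model, in males alone, in females alone and at a threshold of 0.01. Leaving out each animal gave 0 to 2. The difference of Pdzk1 97287_at was 0.19 in females alone and 0.0862 with the proximal tubule marker mean. It was -0.42 in males alone and -0.40 with the actin difference in the model. That of Pdzk1ip1 ran from -0.10 to 0.0052 with each animal left out, the latter without WT 650. The cause of these changes was not tested. The other 7 probe sets kept the direction of their genotype difference under the alternatives run on the models and animals. Within single batches, Slc9a3r1 stood at 0.0087 in the first chip lot and Pdzk1ip1 above zero in 3 batches (0.03 to 0.18). For the named genes outside the members and for calls with sex in the model, no filter and quantile normalization were also tried, chosen after seeing the data: Rgs2, Slc4a1 and C1qa lost their call under both, Slc22a6, Slc22a12, Kit, Ctss and C1qb with no filter, and none changed sign. The male minus female difference of Slc9a3r1 ran from 0.29 to 0.42 over its alternatives. The count of covarying pairs after adjustment and that of sex interactions after adjustment were 0 under every alternative run. The gap between the Pdzk1 probe sets ran from -0.42 to -0.12. No analysis paired or blocked by litter was possible, because the labels do not say which mice were littermates of each other.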
